A study of Mus musculus with 12 samples.

Results

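The genotype by DEN interaction asks, gene by gene, whether the liver's response to the carcinogen diethylnitrosamine (DEN) differed between mice lacking TRIM21 and wild-type mice. It is the log2 fold change of DEN over vehicle in knockout minus the same fold change in wild type, (DENKO − PBSKO) − (DENWT − PBSWT). A positive interaction means that the knockout response lay above the wild-type response. The value draws on 11 of the 12 libraries of the series, chosen by their labels: 3 PBSWT, 3 PBSKO, 3 DENWT and 2 DENKO. The remaining library, DENHET_136, is labelled as a heterozygote treated with DEN, belongs to none of these groups and was left out of the interaction.

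All libraries came from liver of male C57BL/6 mice aged 8 weeks, profiled by RNA sequencing after depletion of ribosomal RNA. PBSWT mice were TRIM21 wild type and received PBS, the vehicle. PBSKO mice were TRIM21 knockout and received PBS. DENWT and DENKO mice had the same genotypes and received 1 intraperitoneal dose of 200 mg/kg DEN, and liver was taken at 48 h. The knockout allele and its breeding were not given in the sources. Nor do the labels state whether every numbered library stands for its own mouse, so the p-values reflect variation among libraries, which may be technical.

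TRIM21 is a RING-type E3 ubiquitin ligase that binds the constant region of antibodies in the cytosol, is itself induced by interferon, and ubiquitinates the NRF2 pathway adaptor p62. DEN is a procarcinogen that pericentral hepatocytes, which surround the central vein, oxidise through cytochrome P450 enzymes, CYP2E1 above all, into a DNA-alkylating product. The alkylation activates p53, kills pericentral cells and is followed by inflammation and by division of surviving hepatocytes. The series title places the knockout in the context of antioxidant capacity and of compensatory proliferation, so genes of both processes are given below whether or not they passed the test.

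Gene counts totalled 17303124 to 23059252 per library. Trim21, the targeted gene, had 104, 127 and 93 counts in PBSWT and 166, 113 and 225 in DENWT. It had 3, 5 and 5 counts in PBSKO, 3 and 3 in DENKO, and 7 in DENHET_136, so the library labelled heterozygote stood at the level of the knockouts. The liver label held in every library, with albumin (Alb) between 57296 and 82960 CPM (the count scaled to a common library size, on library sizes scaled by the trimmed mean of M values, TMM). On the first principal component, which carried 70.3% of the variance, the 6 PBS libraries lay between 51.85 and 55.76 and the DENWT libraries between −94.93 and −78.25. DENKO_309 lay at −44.51 and DENKO_141 at −26.82, between the PBS and the DENWT libraries.

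Of 13255 genes tested, 872 passed the interaction test (6.58% of those tested, adjusted p under 0.05 in edgeR's quasi-likelihood test). The knockout response lay above the wild-type response in 540 genes (4.07%) and below it in 332 (2.5%). Most of these genes had a large response in wild type that was smaller in knockout. Among the 540, the fitted response was a decrease in wild type that was smaller in knockout for 395 genes (73.1%), of opposite sign for 133 (24.6%) and an increase larger in knockout for 12 (2.2%). Their median log2 response was −1.72 in wild type and −0.48 in knockout. Among the 332, 229 (69.0%) had an increase in wild type that was smaller in knockout, 100 (30.1%) had opposite signs and 3 had a larger decrease in knockout. Their median response was 1.32 in wild type and 0.19 in knockout. The 2 responses share no library, but each shares its libraries with the interaction, so these counts describe the called genes and are not independent of the call.

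**Figure D1:**
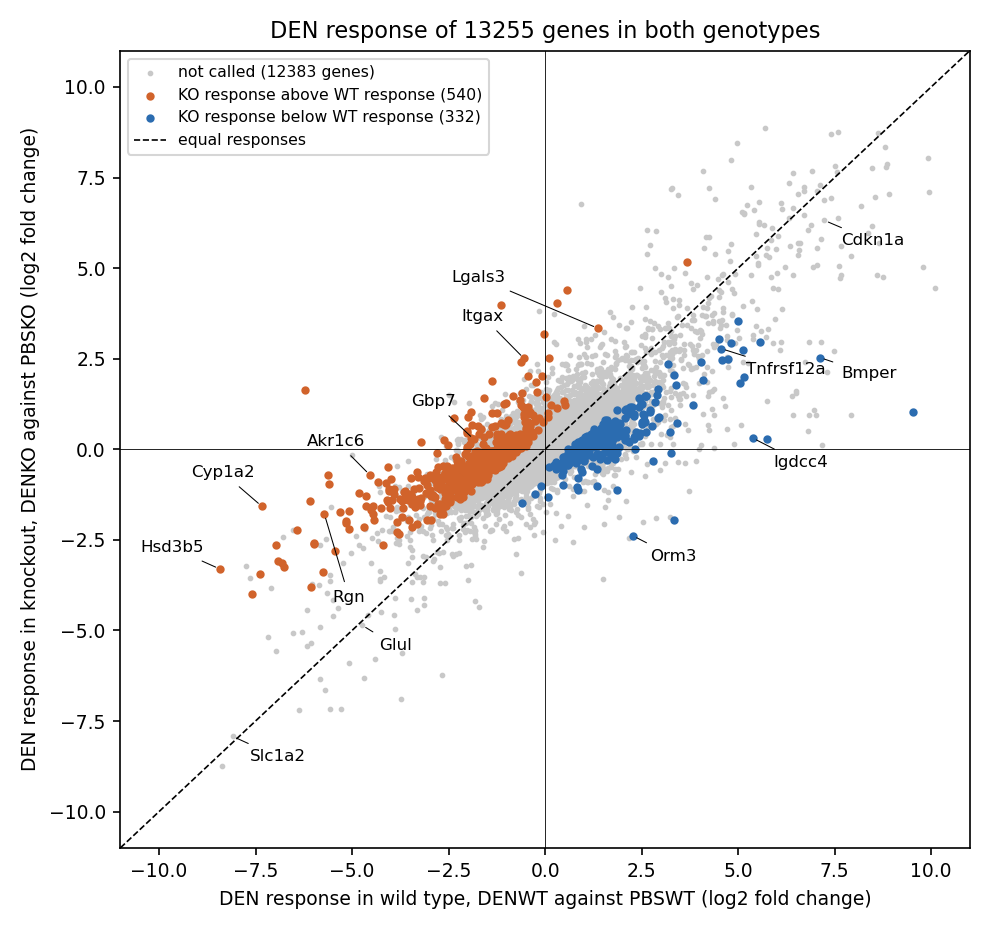
DEN response in wild type (horizontal axis, DENWT against PBSWT) and in knockout (vertical axis, DENKO against PBSKO) as log2 fold changes, 1 point per tested gene. Coloured points are the 540 genes whose knockout response lay above the wild-type response and the 332 with it below. Most coloured points lie between the dashed line of equal responses and the horizontal line of no knockout response, while Glul, Slc1a2 and Cdkn1a lie near the dashed line.

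Across all 13255 genes the responses of the genotypes had a Pearson r of 0.798, and the major axis of the cloud had a slope of 0.694 in knockout per unit in wild type. Genes are not independent of one another, so these 2 values are descriptive only. The absolute knockout to wild-type difference was larger under DEN than under PBS in 9981 of the 13255 tested genes, and it reached 1 on the log2 scale in 1695 of them under DEN and in 318 under PBS. Among the 872 genes, which were selected on the change of this difference, it was larger under DEN in 856 and reached 1 in 486 under DEN and in 18 under PBS. The difference under DEN rests on 2 DENKO and 3 DENWT libraries, and that under PBS on 3 and 3. Libraries within a DEN group also lay farther apart on the first principal component. Fewer and more spread libraries enlarge absolute differences, and their part in these counts was not tested. Over all tested genes the median interaction was 0.004, with median responses of 0.041 in wild type and 0.015 in knockout.

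The number of calls depended most on DENKO_141, 1 of the 2 DENKO libraries. Without DENKO_141, 26 genes were called, all of them among the 872. The count was 616 without DENKO_309, 853 without DENWT_307, 1161 without DENWT_995 and 321 without DENWT_996. Leaving out a vehicle library gave 372 without PBSKO_154, 737 without PBSKO_544, 776 without PBSKO_549, 385 without PBSWT_541, 222 without PBSWT_542 and 257 without PBSWT_545. No called gene changed the sign of its interaction in any of these fits. Each fit shares all its libraries with the fit that called the genes, so a change of sign was unlikely from the start. DENKO_141 lay farther from the DENWT libraries than DENKO_309 did in 437 of the 540 genes (80.9%) and in 251 of the 332 (75.6%). These genes were called with both libraries in the fit. The share over all tested genes was not computed, so it cannot be said whether these shares are particular to the called genes. By a rule on size, p-value and list membership, 78 called genes were selected, most of which are named below. Further members, chosen after their values were seen, are named to describe a list. Of the 78, 16 kept their calls without each library in turn, and the other 62 were lost without DENKO_141. Other libraries cost fewer of the 78: 12 without DENKO_309, 4 without DENWT_307, 3 without DENWT_995, 29 without DENWT_996, 25 without PBSKO_154, 11 without PBSKO_544, 13 without PBSKO_549, 22 without PBSWT_541, 28 without PBSWT_542 and 29 without PBSWT_545.

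**Figure D2:**
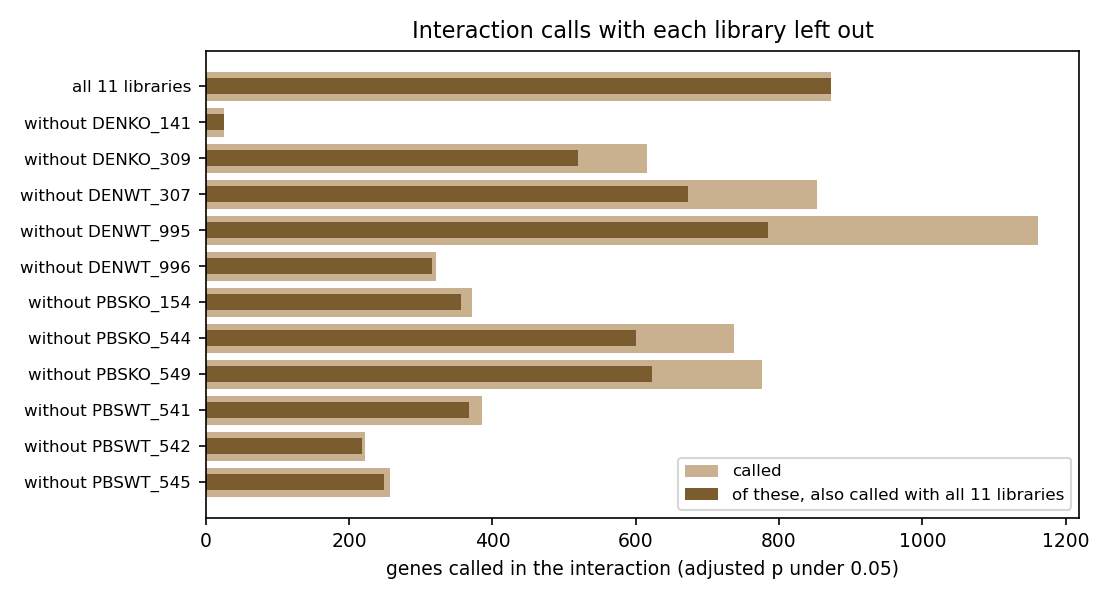
Number of genes called in the interaction (horizontal axis) with all 11 libraries and without each library in turn. The dark part of each bar counts the genes that were also among the 872. The bar is shortest without DENKO_141, at 26 genes, and longest without DENWT_995, at 1161 genes of which 784 were among the 872.

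Pericentral genes, many of them targets of WNT signalling from the central vein, were called in 1 direction only. Of 39 tested members, 17 had a knockout response above that of wild type and none below, against 4.07% above among all genes. The median interaction of the list was 1.79, with median responses of −3.86 in wild type and −1.04 in knockout. The number called was 4 without DENKO_141, 8 without PBSWT_545, 10 without DENWT_996 or PBSWT_541 and 11 without DENWT_307 or PBSWT_542, and 12 to 20 without any other library. The median stayed between 1.33 and 2.12 without each library in turn.

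Cyp1a2, a pericentral P450 that oxidises caffeine and many carcinogens, had the largest positive interaction among the genes named. It stood at 1565, 1741 and 1662 CPM in PBSWT, 1468, 1532 and 1804 in PBSKO, 12.05, 10.98 and 7.57 in DENWT and 858 and 224 in DENKO_141 and DENKO_309. Both knockout libraries under DEN were far above every DENWT library and below every vehicle library. The responses were −7.35 in wild type and −1.57 in knockout, an interaction of 5.78 ± 0.58 (adjusted p = 0.00181), where ± is the standard error throughout. Regucalcin (Rgn), a calcium-binding enzyme that takes part in the ascorbate pathway of rodents, measured 1778, 1636 and 2029 CPM in PBSWT, 2109.9, 1787 and 2044 in PBSKO, 30.00, 38.01 and 35.6 in DENWT and 738 and 404 in DENKO. Its groups under DEN did not overlap and the interaction was 3.92 ± 0.31 (adjusted p = 6.2e-05). Gulo, which makes the last step of ascorbate synthesis, went from 973, 785 and 891 CPM in PBSWT to 46.5, 69.9 and 54.5 in DENWT, and from 884, 873 and 706 in PBSKO to 327 and 290.2 in DENKO. The DENKO values again lay between the vehicle and the DENWT values, with an interaction of 2.54 ± 0.26 (adjusted p = 0.000773). These 3 calls held without each library in turn.

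Not every pericentral gene behaved in this way. Glul, the glutamine synthetase of the innermost ring of pericentral hepatocytes, stood at 1691, 1398 and 1581 CPM in PBSWT, 1829, 1739 and 1395 in PBSKO, 48.9, 68.8 and 57.3 in DENWT and 44.3 and 69.9 in DENKO. The DEN groups overlapped, the responses were −4.74 and −4.86, and the interaction was −0.12 ± 0.30 (adjusted p = 0.84). The members that follow were picked after their values were seen. Slc1a2, a glutamate transporter of the same cell ring, had responses of −8.09 and −7.92 and an interaction of 0.17 ± 0.39 (adjusted p = 0.83). The WNT target Nkd1 had responses of −1.79 and −1.83 and an interaction of −0.035 ± 0.31 (adjusted p = 0.96). Other WNT targets passed the test. Axin2, a scaffold of the beta-catenin destruction complex, had 1.302 ± 0.32 (adjusted p = 0.034), lost without every library but DENWT_307, DENWT_995 and PBSKO_549 (adjusted p up to 0.164). The R-spondin receptor Lgr5 had 2.64 ± 0.69 (adjusted p = 0.0397), lost without every library but DENKO_309, PBSKO_154 and PBSWT_542 (adjusted p up to 0.217) and with limma-voom. The transcription factor Tbx3 had 1.74 ± 0.32 (adjusted p = 0.016), lost without DENKO_141 (adjusted p = 0.0841). Of the membrane E3 ligases, Znrf3 had 1.23 ± 0.24 (adjusted p = 0.0189), lost without DENKO_141 (adjusted p = 0.108), and Rnf43 had 1.09 ± 0.30 (adjusted p = 0.0468), lost without every library but DENWT_995 and PBSKO_544 (adjusted p up to 0.232), with library totals alone and with a non-robust spread. With all 11 libraries, WNT targets were found both among the called genes and among genes with nearly equal responses.

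Cyp2e1, the main DEN-activating enzyme, did not pass the test with all 11 libraries and passed it without DENWT_995 (adjusted p = 0.00231). It stood at 12496, 12048 and 11842 CPM in PBSWT, 16554, 12014 and 10866 in PBSKO, 342, 1765 and 401 in DENWT and 2086 and 2271 in DENKO, with an interaction of 1.27 ± 0.78 (adjusted p = 0.342). DENWT_995 was high among the DENWT libraries, although below both DENKO libraries. The knockout to wild-type difference under PBS was 0.12 on the log2 scale for Cyp2e1 and −0.049 for Cyp1a2.

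**Figure D3:**
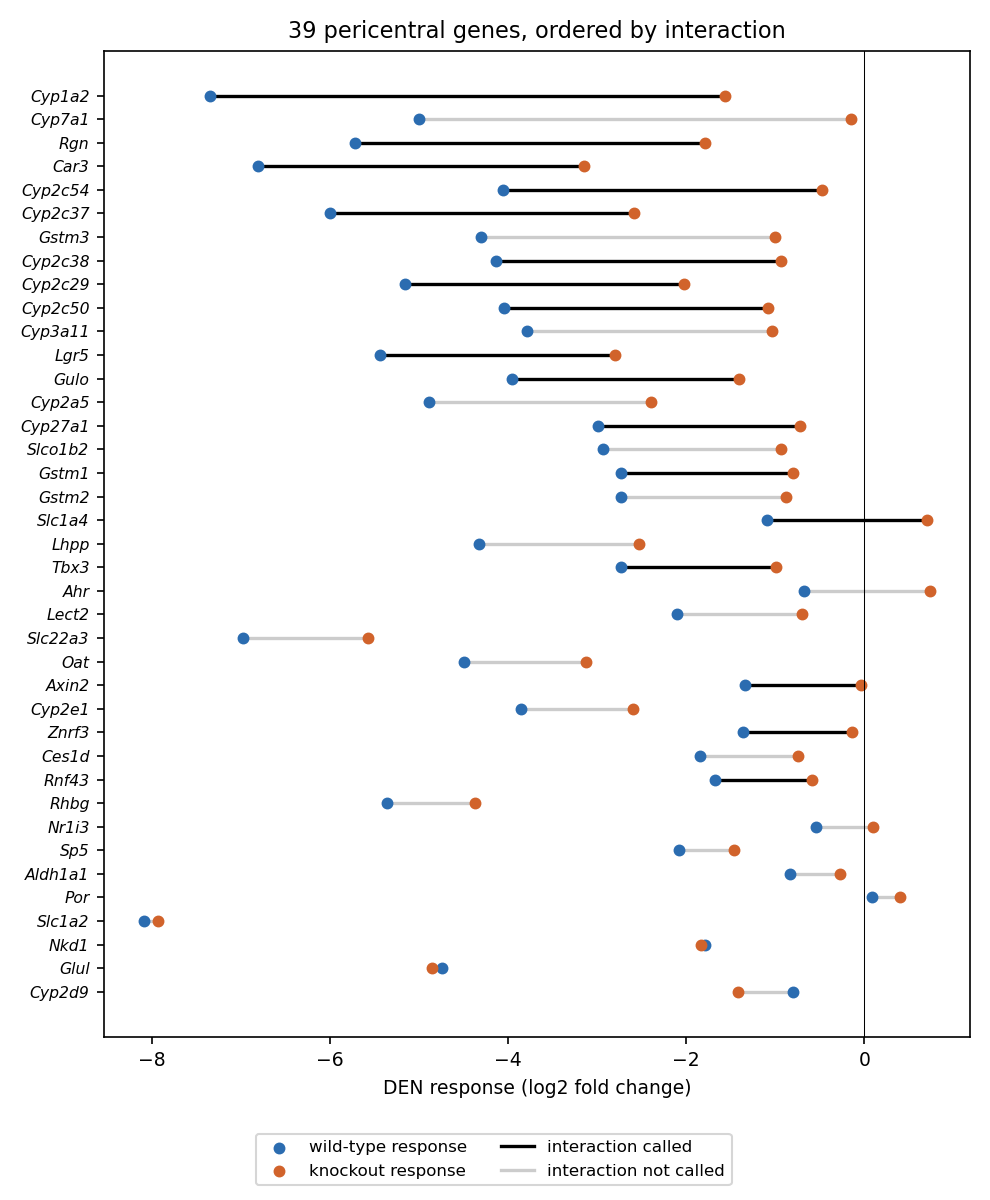
Fitted DEN responses (log2 fold change, horizontal axis) of the 39 tested pericentral genes in wild type and knockout, ordered by interaction, with a black bar for the 17 called genes and a grey bar for the others. The knockout point lies to the right of the wild-type point for 36 genes, and the points of Slc1a2, Nkd1 and Glul nearly coincide.

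Enzymes of drug and steroid metabolism, which share genes with the pericentral list, showed the same direction. Among 67 tested cytochrome P450 genes, 14 had a knockout response above that of wild type and 1, Cyp2d12, below, against 4.07% and 2.5% among all genes, with a median interaction of 0.69 and median responses of −1.70 in wild type and −0.61 in knockout. The number above was 2 without DENKO_141, 7 without PBSWT_545 and 8 without DENWT_996 or PBSWT_542, and 10 to 21 without any other library. Cyp4f14, a leukotriene hydroxylase, measured 54.9, 51.8 and 34.9 CPM in DENWT and 252 and 134 in DENKO, against 366, 326 and 398 in PBSWT and 363, 321 and 308.9 in PBSKO. Its interaction was 2.17 ± 0.33 (adjusted p = 0.00799) and held without each library in turn. Cyp2c55 had an interaction of 4.64 ± 0.86 (adjusted p = 0.0214), lost without DENKO_141 or DENWT_996 (adjusted p up to 0.0728). Of the 14, 9 were Cyp2c genes, whose near-identical sequences can share reads, so the value of any one of them is uncertain. Cyp1a2, Cyp27a1, Cyp2c29, Cyp2c37, Cyp2c38, Cyp2c50 and Cyp2c54 were already counted among the called pericentral genes, so the lists are not separate evidence.

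Of 27 tested glucuronosyl- and sulfotransferases, which conjugate drugs and steroids, 5 were called above and none below (18.5% against 6.58% among all genes), with a median interaction of 0.84. That number was 1 without DENKO_141, 2 without DENWT_996, PBSKO_544, PBSWT_541 or PBSWT_542 and 3 without PBSKO_154 or PBSWT_545, and 4 to 7 without any other library. The sulfotransferase gene listed as 2810007J24Rik (Sult2a8) lay between vehicle and DENWT levels in both DENKO libraries, with 55.5, 63.1 and 23.7 CPM in DENWT and 501 and 533 in DENKO against 1587, 1664 and 1539 in PBSWT and 1941, 1758 and 1383 in PBSKO. The interaction was 3.36 ± 0.42 (adjusted p = 0.00301) and held without each library in turn. Ugt2b1, whose family members may share reads, had an interaction of 2.69 ± 0.42 (adjusted p = 0.00834), lost without DENKO_141 (adjusted p = 0.0603).

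Hsd3b5, a steroid dehydrogenase that is high in male liver, measured 347, 308 and 171 CPM in PBSWT, 275, 169.8 and 544.1 in PBSKO, 1.15, 0.720 and 0.536 in DENWT and 33.3 and 33.7 in DENKO. Slco1a1, a sodium-independent uptake transporter for bile acids and steroid conjugates, measured 739, 583 and 655 in PBSWT, 431, 652 and 516 in PBSKO, 20.4, 16.1 and 3.65 in DENWT and 287 and 362 in DENKO. The DEN groups overlapped in neither gene, and the interactions were 5.13 and 4.91, lost without DENKO_141 (adjusted p = 0.0603) and without DENKO_141 (adjusted p = 0.0615) respectively. Serpina6, the corticosteroid-binding globulin of plasma, had responses of −6.97 and −2.64 and an interaction of 4.33 ± 0.69 (adjusted p = 0.016). The anion transporter Slc22a28 had an interaction of 4.18 ± 0.60 (adjusted p = 0.00682), and the vesicle protein gene Syt1 one of 3.96 ± 0.52 (adjusted p = 0.00389). Fam55b, a member of the NXPE family, stood at 0.901, 1.03 and 0.402 CPM in DENWT and 16.99 and 15.6 in DENKO with an interaction of 4.65 ± 0.36 (adjusted p = 6.2e-05). Ces2a, a carboxylesterase, had an interaction of 2.22 ± 0.26 (adjusted p = 0.00181). The last 5 calls held without each library in turn.

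Of 31 genes known to be higher in male liver, 7 were called above and none below, against 4.07% and 2.5% among all genes, with a median interaction of 0.81 and median responses of −2.24 in wild type and −1.58 in knockout. The number was 0 without DENKO_141, and 5 to 9 without any other library. Of the called male-biased genes, Slco1a1, Ugt2b1, C6, C8b and Alas2 are also called members of other lists. Among 24 female-biased genes 3 were above and 1 below, against the same background. Their median interaction was 0.74, although the median responses, 0.47 in wild type and 0.21 in knockout, stood in the opposite order. Hamp2, a hepcidin, had an interaction of 3.49 ± 0.80 (adjusted p = 0.0386), lost without every library but PBSKO_154 (adjusted p up to 0.104), and the heparan sulfate proteoglycan Gpc1 had one of −1.90 ± 0.33 (adjusted p = 0.011), lost without DENKO_141 (adjusted p = 0.0888).

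In bile acid synthesis and transport 4 of 27 tested genes were above and none below (14.8% against 6.58% among all genes), with a median interaction of 0.74. That number was 1 without DENKO_141, and 3 to 6 without any other library. Of the called genes, Cyp27a1, Slco1a1 and Nr1h4 are also called members of other lists. Akr1c6, a ketosteroid reductase, stood at 2131, 1838 and 1791 CPM in PBSWT, 2283, 1919.7 and 1741 in PBSKO, 127, 82.8 and 36.5 in DENWT and 1239 and 1198 in DENKO. Both DENKO libraries lay above every DENWT library, and the interaction of 3.84 ± 0.50 (adjusted p = 0.00487) held without each library in turn. Cyp27a1, which opens the alternative route of bile acid synthesis, had one of 2.27 ± 0.36 (adjusted p = 0.00861), lost without DENKO_141 (adjusted p = 0.0603). The bile acid receptor FXR (Nr1h4) had 0.80 ± 0.20 (adjusted p = 0.0339), lost without every library but DENWT_307, DENWT_995, PBSKO_549 and PBSWT_545 (adjusted p up to 0.156).

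Lipid genes divided by pathway. Of 24 cholesterol synthesis genes 23 had a positive interaction and the median was 1.07, with median responses of −1.65 in wild type and −0.41 in knockout. However, 1 passed the test (4.17% against 6.58% among all genes). That gene was Tm7sf2, a sterol reductase, at 33.4, 33.3 and 23.2 CPM in DENWT and 98.9 and 73.8 in DENKO, with an interaction of 1.70 ± 0.25 (adjusted p = 0.00682), lost without DENKO_141 (adjusted p = 0.0532). The number called was 0 without DENKO_141, 2 without PBSKO_154 or PBSWT_545, 5 without DENKO_309 and 10 without DENWT_307, and 1 without any other library. DESeq2 called 9, the stricter filter left 3 called, and 2 were called without the low-count filter, with library totals alone or with a non-robust spread. In fatty acid synthesis 4 of 24 genes were above and none below, at a median of 0.55, and the number was 1 without DENKO_141 and 2 without DENWT_996, and 3 to 5 without any other library. The share called in fatty acid synthesis was 16.7%, against 6.58% among all genes. At an unadjusted p below 0.05 this list had 7 members with a positive and 4 with a negative interaction. DESeq2 called 3 members below, library totals alone or a non-robust spread 2, and the stricter filter 1. Mlxipl, which encodes the glucose-sensing transcription factor ChREBP, measured 55.4, 54.1 and 42.2 CPM in DENWT and 209.5 and 170.2 in DENKO, against 302, 296 and 318 in PBSWT and 226, 344 and 334 in PBSKO. Its interaction of 1.93 ± 0.26 (adjusted p = 0.00389) held without each library in turn. Acss2, which makes acetyl-CoA from acetate, had 1.93 ± 0.35 (adjusted p = 0.0156), lost without DENKO_141 (adjusted p = 0.094).

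Genes of PPAR-alpha signalling and fatty acid oxidation went the other way. None of 40 was above and 4 were below, against 2.5% below among all genes. Those below were Ehhadh, Plin2, Acot2 and Slc25a20. The list had a median interaction of −0.45 and median responses of 0.61 in wild type and 0.10 in knockout. The 4 became 0 without DENKO_141, PBSKO_154, PBSWT_542 or PBSWT_545, 1 without DENWT_996 and 2 without DENWT_307, PBSKO_549 or PBSWT_541, and 3 to 5 without any other library. Plin2, which coats lipid droplets, stood at 1459, 1321 and 1963 CPM in DENWT and 419 and 646 in DENKO, against 456, 279 and 333 in PBSWT and 406, 294 and 653 in PBSKO. Its DENKO values overlapped those of the vehicle groups, and the interaction was −1.91 ± 0.45 (adjusted p = 0.0319), lost without DENKO_141, DENWT_996, PBSKO_154, PBSWT_542 or PBSWT_545 (adjusted p up to 0.183). Lipid genes from outside this list follow, and they do not enter its counts. Cidec and Fabp4 belong to the adipose, pancreas, muscle and kidney list and Hsd17b13 to the periportal list. Cidec, which enlarges lipid droplets, measured 140.6, 128 and 189 CPM in DENWT and 11.01 and 30.9 in DENKO against 4.25, 2.15 and 3.25 in PBSWT and 3.14, 2.83 and 2.02 in PBSKO. The interaction was −2.60 ± 0.60 (adjusted p = 0.0356), lost without every library but DENKO_309, DENWT_307 and DENWT_995 (adjusted p up to 0.0835). Hsd17b13, another lipid droplet protein of hepatocytes, stood at 327, 361 and 348 CPM in PBSWT, 257, 269.7 and 302 in PBSKO, 945, 652 and 874 in DENWT and 221 and 255 in DENKO. The DENKO libraries lay below all vehicle libraries and the DENWT libraries above them, with an interaction of −1.47 ± 0.24 (adjusted p = 0.00904), lost without DENKO_141 (adjusted p = 0.081). The fatty acid carrier Fabp4 had −1.97 ± 0.43 (adjusted p = 0.0266), lost without DENKO_141, PBSWT_541 or PBSWT_545. Of the PPAR-alpha list itself, the peroxisomal enzyme Ehhadh had −1.03 ± 0.24 (adjusted p = 0.0292), lost without DENKO_141, DENWT_996, PBSKO_154, PBSWT_542 or PBSWT_545.

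**Figure D4:**
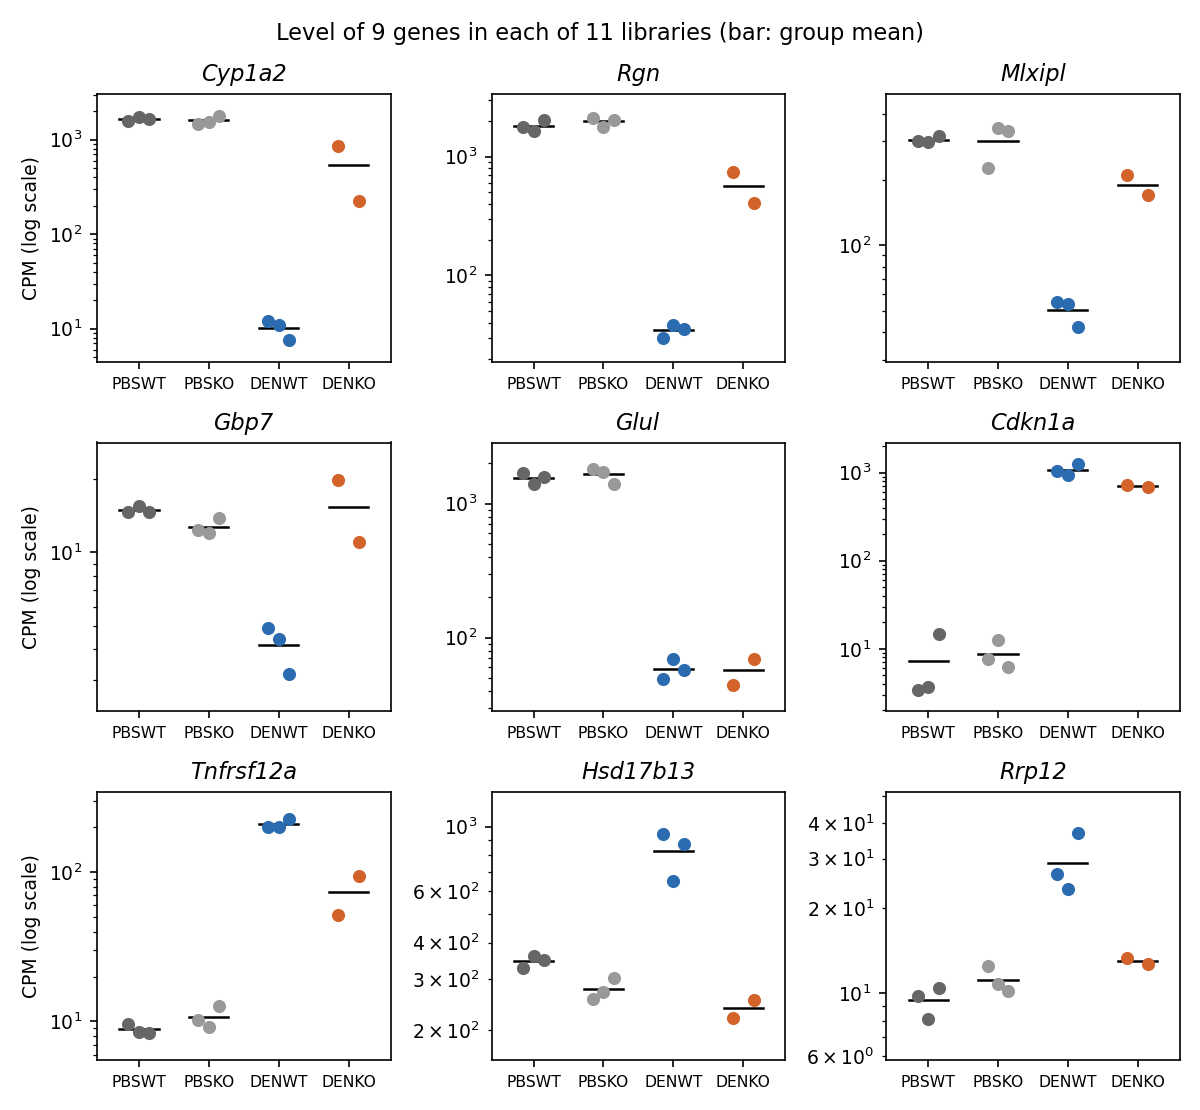
CPM on log axes of 9 genes in the 11 libraries, 1 point per library, with a bar at each group mean. The DENKO points of Cyp1a2, Rgn, Mlxipl and Tnfrsf12a lie between the vehicle and DENWT points or close to the vehicle points, those of Gbp7 lie on either side of the vehicle points, those of Glul overlap the DENWT points, and those of Hsd17b13 lie below all vehicle points.

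Of 29 tested hepatocyte markers 2 were above and none below, a share of 6.9% against 6.58% called in either direction among all genes. Of 37 complement and coagulation genes 8 were above and none below, against 4.07% and 2.5% among all genes, with a median interaction of 0.60, and the number was 0 without DENKO_141, 2 without PBSWT_542, 4 without PBSKO_154 and 5 without PBSWT_541 or PBSWT_545, and 6 to 11 without any other library. C9, which forms the pore of the membrane attack complex, stood at 95.0, 131 and 56.3 CPM in DENWT and 546 and 487 in DENKO against 726, 815 and 884 in PBSWT and 836, 874 and 957 in PBSKO, with an interaction of 2.32 ± 0.35 (adjusted p = 0.00778), lost without DENKO_141 (adjusted p = 0.0532). C6 of the same complex had 1.40 ± 0.26 (adjusted p = 0.016), lost without DENKO_141 (adjusted p = 0.0603), and coagulation factor F7 had 1.17 ± 0.24 (adjusted p = 0.0218), lost without DENKO_141 or PBSWT_542 (adjusted p up to 0.145). In the urea cycle and amino acid catabolism 8 of 39 genes were above and 1 below, at a median of 0.36, and the 8 became 0 without DENKO_141, 1 without PBSKO_154, PBSWT_541, PBSWT_542 or PBSWT_545, 2 without PBSKO_544 or PBSKO_549 and 4 without DENWT_307 or DENWT_996, and 7 to 8 without any other library. The share called in that list was 23.1%, against 6.58% among all genes. Otc, the urea cycle enzyme that makes citrulline, had an interaction of 2.69 ± 0.47 (adjusted p = 0.0156), lost without DENKO_141. The serine dehydratase-like gene Sdsl had −0.98 ± 0.18 (adjusted p = 0.0151), lost without DENKO_141 (adjusted p = 0.0615).

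Among genes of gluconeogenesis and glycolysis, Pygl, which breaks down glycogen, was called above. That call was lost without every library but DENKO_309, and with upper-quartile factors, limma-voom or a non-robust spread. Of the 28 tested genes of this list 5 were above and none below (17.9% against 6.58% among all genes). The number was 0 without DENKO_141 or PBSWT_545, 1 without DENWT_996, PBSWT_541 or PBSWT_542, 2 without DENWT_995 and 3 without DENWT_307 or PBSKO_154, and 4 to 5 without any other library. Pfkfb1, the liver enzyme that sets the level of an allosteric activator of glycolysis, had an interaction of 1.39 ± 0.29 (adjusted p = 0.023), lost without DENKO_141, DENKO_309 or PBSWT_545 (adjusted p up to 0.094), and phosphofructokinase Pfkl had 0.83 ± 0.19 (adjusted p = 0.0292), lost without DENKO_141, DENWT_996, PBSWT_541, PBSWT_542 or PBSWT_545 (adjusted p up to 0.177). Periportal genes, the counterpart of the pericentral list, had 2 of 30 above and 3 below (16.7% against 6.58% among all genes) and a median of 0.090. Of 42 liver transcription factors and nuclear receptors 3 were above and none below, at a median of 0.27. This was 7.14%, against 6.58% called in either direction among all genes. Besides Nr1h4 and Mlxipl the called gene was the thyroid hormone receptor Thrb, at 1.10 ± 0.19 (adjusted p = 0.0101), lost without DENKO_141. Hnf4a, the master regulator of hepatocyte identity, had an interaction of 0.23 ± 0.25 (adjusted p = 0.583) and Alb one of −0.085 ± 0.30 (adjusted p = 0.888).

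**Figure D5:**
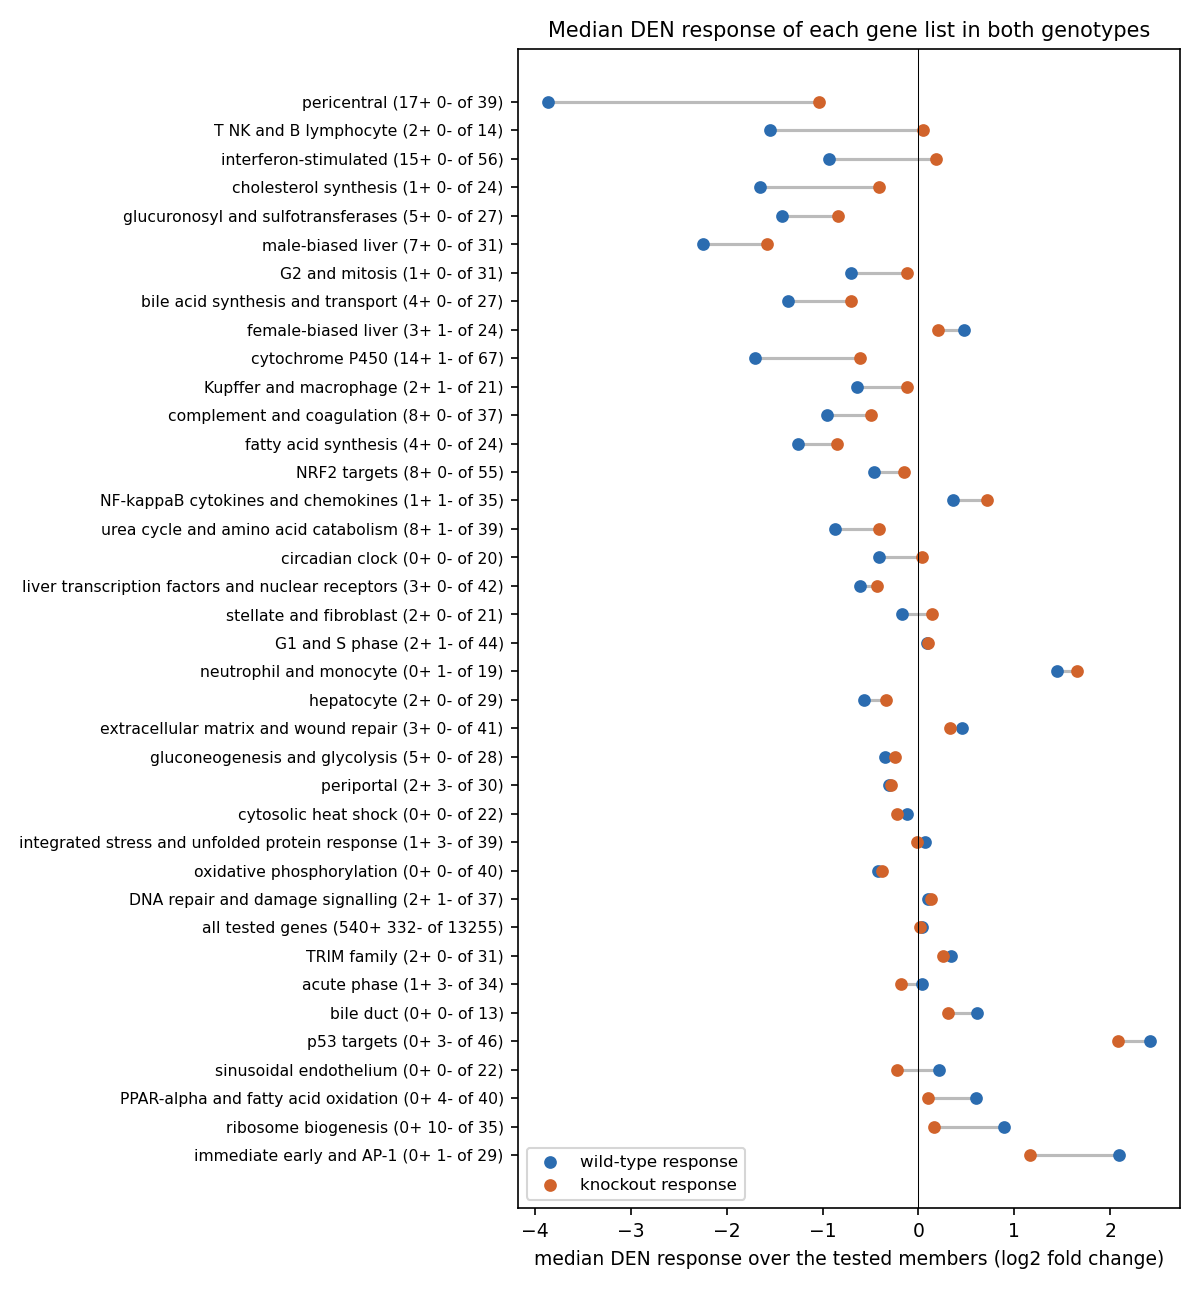
Median log2 DEN response (horizontal axis) of each list with at least 10 tested members and of all tested genes, in wild type (blue) and knockout (orange), ordered by median interaction. The numbers in brackets are the members called above (+) and below (−) and the number tested. Lists with a strongly negative wild-type median, such as the pericentral list at −3.86, have a knockout median nearer 0, and the immediate early and ribosome biogenesis lists have wild-type medians of 2.10 and 0.90 with knockout medians nearer 0.

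Interferon-stimulated genes, which encode antiviral and antigen-processing proteins, had 15 of 56 tested members above and none below, against 4.07% above among all genes. The median interaction was 1.07, with a median response of −0.93 in wild type and 0.18 in knockout, so that the responses of the genotypes had opposite signs at the median. Of the 56, 51 had a positive interaction. The number called was 1 without DENKO_141, 8 without PBSWT_542, 9 without DENWT_996 or PBSKO_154 and 33 without PBSKO_549, and 10 to 18 without any other library. Called members included the RNA sensors Ifih1 and Ddx58, the factor Irf7, the guanylate-binding proteins Gbp3 and Gbp7, the peptide transporter Tap2, the immunoproteasome subunits Psmb8, Psmb9 and Psmb10, and the chemokine Cxcl9.

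Gbp7 stood at 14.7, 15.6 and 14.7 CPM in PBSWT, 12.3, 12.02 and 13.8 in PBSKO, 4.92, 4.41 and 3.18 in DENWT and 19.8 and 11.01 in DENKO. DENWT lay below every other library, while the DENKO libraries spread around the vehicle levels. The interaction was 2.13 ± 0.31 (adjusted p = 0.00682) and held without each library in turn. Psmb8 measured 52.4, 47.7 and 56.7 CPM in PBSWT, 44.0, 46.9 and 51.4 in PBSKO, 15.5, 14.3 and 12.3 in DENWT and 33.8 and 27.3 in DENKO. It lay between vehicle and DENWT levels in DENKO, at an interaction of 1.26 ± 0.19 (adjusted p = 0.00798), lost without DENKO_141 (adjusted p = 0.0603). Of 31 tested members of the TRIM family 2 were called, a share of 6.45% that was near the 6.58% among all genes. Trim14 had 1.86 ± 0.41 (adjusted p = 0.0264), lost without DENKO_141 or DENWT_996. The nuclear cofactor Trim24 had 0.84 ± 0.23 (adjusted p = 0.0448), lost without every library but DENWT_307 and DENWT_995.

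The promoters of the 2 called guanylate-binding protein genes that hold a core of the interferon-stimulated response element are shown because these genes were called together. The remaining called interferon-stimulated gene with a match, Bst2, is not shown. Each line gives the 250 bases before the start site, 5′ to 3′ on the gene's strand, from RefSeq on GRCm38.p6, with matches to the motif (GAAA, any 2 bases, GAAA, on either strand) in capitals. The Gbp7 window is chr3:142530086-142530335 on the plus strand, and its match begins 53 bases before the start site. The Gbp3 window is chr3:142559794-142560043 on the plus strand, with 2 overlapping matches of which the first begins 45 bases before the start site.
Gbp7: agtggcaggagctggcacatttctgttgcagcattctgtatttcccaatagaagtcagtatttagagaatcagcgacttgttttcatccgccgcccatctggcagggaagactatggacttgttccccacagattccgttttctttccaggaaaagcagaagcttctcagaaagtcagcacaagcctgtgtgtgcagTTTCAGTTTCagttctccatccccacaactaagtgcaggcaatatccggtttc
Gbp3: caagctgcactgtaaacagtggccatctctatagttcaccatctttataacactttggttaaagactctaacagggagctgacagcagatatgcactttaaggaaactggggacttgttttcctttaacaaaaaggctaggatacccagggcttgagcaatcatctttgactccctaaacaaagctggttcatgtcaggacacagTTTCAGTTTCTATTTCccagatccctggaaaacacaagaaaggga
The motif occurred in 936 of 27018 RefSeq promoters of this length (3.46%) and in 3.25% of the 9460 tested genes with a promoter entry. It occurred in 19 of 42 interferon-stimulated genes with an entry (45.2%) and in 3 of the 12 called ones (25%). Among the 401 genes called above with an entry 23 held it (5.74%), and among the 235 called below 7 did (2.98%). A match describes the letters in the window and is not a measured binding site.

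The listed markers of T, NK and B cells, taken as a sum, stood lower in DENWT than elsewhere. Of 14 tested T, NK and B cell genes 13 had a positive interaction. The T cell coreceptor Cd8a and the granule protein gene Nkg7 were the 2 called (14.3% against 6.58% among all genes). The median interaction was 1.72, with median responses of −1.55 in wild type and 0.048 in knockout. The number called was 0 without DENKO_141, DENWT_996, PBSWT_542 or PBSWT_545 and 1 without DENWT_307, DENWT_995, PBSKO_154, PBSKO_549 or PBSWT_541, and 2 without any other library, and it was 0 with the stricter filter and 1 with DESeq2 or limma-voom. The summed level of the 21 listed genes was 12.16 to 18.03 CPM in PBSWT, 11.65 to 16.54 in PBSKO, 3.48 to 5.31 in DENWT and 10.84 to 15.35 in DENKO. Every DENWT library lay below every other library, and none of the 21 genes was at 0 in all libraries. The granzyme gene Gzmm, which is not on the list, went the other way. Its group means were 0.191 CPM in PBSWT, 0.269 in PBSKO, 6.54 in DENWT and 0.976 in DENKO. In bulk liver, fewer cells of a type and less RNA per cell cannot be told apart. The part of these cells in the interferon and antigen-processing values was not tested.

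Kupffer cell and macrophage genes summed to 354 to 565 CPM in DENWT and 691 to 773 in DENKO, against 423 to 773 in PBSWT and 585 to 751 in PBSKO. Of the 21, 3 were called (14.3% against 6.58% among all genes), Itgax and Mpeg1 above and Cd14 below. Mpeg1, a pore-forming protein of macrophages, had an interaction of 1.02 ± 0.25 (adjusted p = 0.0334), lost without every library but DENWT_307, DENWT_995, PBSKO_154, PBSKO_544 and PBSKO_549 (adjusted p up to 0.156). Itgax, the integrin CD11c of dendritic cells and some macrophages, stood at 0.709, 1.28 and 0.863 CPM in PBSWT, 0.664, 0.646 and 0.585 in PBSKO, 1.07, 0.585 and 0.335 in DENWT and 3.68 and 3.58 in DENKO. DENKO lay above every other library, at an interaction of 3.07 ± 0.57 (adjusted p = 0.0156), lost without DENKO_141 (adjusted p = 0.0861). Lgals3, a galectin of activated macrophages that is a member of the extracellular matrix and wound repair list, measured 14.2, 12.5 and 6.80 CPM in DENWT and 38.6 and 56.9 in DENKO against 2.66, 6.197 and 4.05 in PBSWT and 3.99, 4.27 and 5.80 in PBSKO. The DENKO libraries were the 2 highest, and the interaction was 1.99 ± 0.49 (adjusted p = 0.0386), lost without every library but DENWT_307, DENWT_995, PBSKO_549 and PBSWT_541 (adjusted p up to 0.12). Cd14, the lipopolysaccharide coreceptor, went the other way, at 1.42, 2.71 and 1.99 CPM in PBSWT, 2.42, 2.14 and 2.66 in PBSKO, 33.1, 28.1 and 44.1 in DENWT and 7.36 and 10.8 in DENKO, with an interaction of −2.17 ± 0.37 (adjusted p = 0.0106), lost without DENKO_141 (adjusted p = 0.0827).

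Neutrophil and monocyte genes summed to 800.3 to 961 CPM in DENWT and 603 to 706 in DENKO, with 639 to 751 in PBSWT and 615 to 689 in PBSKO. Without Lcn2, a sum added after its values were seen, the range was 222 to 419 CPM in DENWT, 525 to 543 in DENKO, 623 to 733 in PBSWT and 594 to 646 in PBSKO, so that the order of the DEN groups turned. Most of that sum was F10, coagulation factor X, which hepatocytes make and which the list holds, at 628, 705 and 599 CPM in PBSWT, 567, 565 and 616 in PBSKO, 273, 294 and 168 in DENWT and 434 and 393 in DENKO. Without both genes the sum was 18.3 to 27.4 CPM in PBSWT, 28.4 to 31.3 in PBSKO, 53.8 to 125 in DENWT and 108 to 132 in DENKO, so that the DEN groups overlapped and lay above the vehicle groups. Of 19 tested members 15 had a positive response in wild type and 17 in knockout, at medians of 1.44 and 1.66. The share called was 5.26%, against 6.58% among all genes. The 1 called member was Lcn2, an iron-sequestering protein that hepatocytes also secrete in the acute phase response, at 9.39, 18.4 and 16.5 CPM in PBSWT, 16.5, 31.6 and 43.0 in PBSKO, 452, 541.8 and 578 in DENWT and 60.5 and 181 in DENKO. Its interaction was −3.16 ± 0.70 (adjusted p = 0.0349), lost without every library but DENKO_309, DENWT_307, DENWT_995 and PBSKO_154 (adjusted p up to 0.138). Of 34 acute phase genes 1 was above and 3 below (11.8% against 6.58% among all genes). Orm3, an orosomucoid whose relatives can share its reads, had −4.67 ± 0.998 (adjusted p = 0.0351), lost without every library but DENWT_307, DENWT_995, PBSKO_544 and PBSWT_541 (adjusted p up to 0.192), and its PBS values ran from 2.01 to 25.2 CPM. Of 35 NF-kappaB cytokine and chemokine genes 2 were called (5.71% against 6.58% among all genes), in opposite directions. Tnfrsf12a, the receptor of the cytokine TWEAK, stood at 9.63, 8.55 and 8.43 CPM in PBSWT, 10.2, 9.24 and 12.6 in PBSKO, 201, 202 and 227 in DENWT and 51.7 and 94.8 in DENKO. The DENKO libraries lay between vehicle and DENWT, and the interaction of −1.79 ± 0.29 (adjusted p = 0.00968) held without each library in turn. Cxcl12, a chemokine of stromal and endothelial cells, had 1.21 ± 0.29 (adjusted p = 0.0319), lost without every library but DENWT_307, DENWT_995, PBSKO_544 and PBSKO_549 (adjusted p up to 0.159). Tnf had an interaction of 2.06 ± 1.17 (adjusted p = 0.288) and Il1b one of −0.89 ± 0.79 (adjusted p = 0.507). Il6 was below the filter on low counts.

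Markers of stellate cells and fibroblasts had 2 of 21 members above, the matrix genes Reln and Col3a1. This was 9.52%, against 6.58% called in either direction among all genes. Reln had 0.99 ± 0.23 (adjusted p = 0.0296), lost without DENKO_141, DENWT_996, PBSKO_154, PBSWT_541 or PBSWT_545. Col3a1 had 1.19 ± 0.32 (adjusted p = 0.0455), lost without every library but DENKO_309, DENWT_307 and PBSKO_544. Among 41 genes of extracellular matrix and wound repair 3 were called (7.32% against 6.58% among all genes). Col14a1, 1 of these 3, had 1.26 ± 0.29 (adjusted p = 0.0296), lost without DENKO_141, DENWT_996, PBSKO_154, PBSWT_542 or PBSWT_545. Of only 5 tested erythroid markers 2 were above and 1 below (60% against 6.58% among all genes). Those above were Epor and the haem synthesis gene Alas2, which had 1.68 ± 0.29 (adjusted p = 0.0125), lost without DENKO_141. The Epor call was lost without every library but DENWT_995 and PBSKO_549. It was also lost with library totals alone, without the low-count filter and with limma-voom. The transferrin receptor Tfrc had −1.18 ± 0.30 (adjusted p = 0.0365), lost without every library but DENWT_995 and PBSKO_544. Markers of adipose tissue, pancreas, muscle and kidney summed to 53.2 to 61.9 CPM in PBSWT, 52.1 to 69.5 in PBSKO, 163 to 211 in DENWT and 31.3 to 58.2 in DENKO. Of the 17, 5 were at 0 in every library and only 4 were tested. Of these 4, Fabp4 and Cidec were called below (50% against 6.58% among all genes). Cidec can also be expressed by hepatocytes. Without it the sums, likewise added later, were 49.2 to 59.8 CPM in PBSWT, 49.2 to 67.5 in PBSKO, 22.6 to 34.1 in DENWT and 20.3 to 27.3 in DENKO. Both DEN groups then lay below both vehicle groups.

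NRF2, encoded by Nfe2l2, is the transcription factor that raises glutathione synthesis and antioxidant enzymes when its inhibitor KEAP1 releases it. Of 55 tested NRF2 target genes 8 were above and none below, against 4.07% and 2.5% among all genes, with a median interaction of 0.46 and median responses of −0.46 in wild type and −0.15 in knockout. The number called was 0 without DENKO_141, 1 without PBSKO_154 or PBSWT_545, 2 without DENWT_996 or PBSWT_542, 3 without PBSWT_541, 4 without PBSKO_544 and 5 without DENWT_307, and 7 to 9 without any other library. DESeq2 called 16. Members called were the glutathione S-transferases Gsta3, Gsta4, Gstm1 and Gstm6, the oxidoreductases Aox1 and Cbr1, the glutamate-cysteine ligase subunit Gclm and Nfe2l2 itself. The transferases can share reads among near-identical relatives, and Gstm1 is also a called member of the pericentral list. Gsta3 stood at 2119.7, 1994 and 2616 CPM in PBSWT, 2964, 2532 and 1784 in PBSKO, 575, 389 and 291 in DENWT and 1809.8 and 1571 in DENKO, with an interaction of 1.90 ± 0.37 (adjusted p = 0.0182), lost without DENKO_141 (adjusted p = 0.106). Aox1 had 1.21 ± 0.27 (adjusted p = 0.0272), lost without DENKO_141, DENWT_996, PBSKO_154, PBSWT_541 or PBSWT_545 (adjusted p up to 0.17).

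Nfe2l2 measured 80.4, 78.2 and 84.4 CPM in PBSWT, 63.3, 79.3 and 51.9 in PBSKO, 99.7, 88.0 and 114 in DENWT and 149 and 136.2 in DENKO. The DENKO libraries were the 2 highest of the 11, and the interaction was 0.82 ± 0.22 (adjusted p = 0.0448). It was lost without every library but PBSKO_544 (adjusted p up to 0.199), and also with scaling by library totals alone or a non-robust spread. Gclm measured 79.9, 70.6 and 56.4 CPM in DENWT and 141.1 and 117 in DENKO against 157, 144 and 147 in PBSWT and 137, 140.3 and 168 in PBSKO, so DENKO lay near the vehicle levels and DENWT below them. Its interaction was 0.92 ± 0.22 (adjusted p = 0.0306), lost without every library but DENKO_309, DENWT_307, DENWT_995 and PBSKO_549 (adjusted p up to 0.177).

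The classical NRF2 targets did not share one pattern, and the following did not pass the test. Nqo1, a quinone reductase, stood at 14.5, 18.6 and 13.7 CPM in DENWT and 30.2 and 20.7 in DENKO, at an interaction of 0.85 ± 0.35 (adjusted p = 0.148). Haem oxygenase Hmox1 stood at 78.6, 70.1 and 62.5 and 64.2 and 84.4, overlapping, at 0.14 ± 0.30 (adjusted p = 0.816). Thioredoxin reductase Txnrd1 had −0.044 ± 0.18 (adjusted p = 0.907), the catalytic subunit Gclc −0.25 ± 0.29 (adjusted p = 0.623) and sulfiredoxin Srxn1 −0.52 ± 0.20 (adjusted p = 0.135). Keap1 had −0.049 ± 0.18 (adjusted p = 0.895), and Sqstm1, which encodes the TRIM21 substrate p62, had −0.033 ± 0.23 (adjusted p = 0.947).

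The response of p53 target genes was large in both genotypes, with median log2 responses of 2.41 in wild type and 2.08 in knockout over 46 tested genes. Cdkn1a, the p21 inhibitor of the cell cycle, stood at 3.42, 3.69 and 14.6 CPM in PBSWT, 7.61, 12.6 and 6.23 in PBSKO, 1037, 945 and 1256 in DENWT and 729 and 680.0 in DENKO. Its DENKO values were below those of DENWT, although the interaction of −0.92 ± 0.74 (adjusted p = 0.469) did not pass. It passed without PBSWT_545 (adjusted p = 0.0345). Mdm2, the ligase that turns p53 over, had responses of 3.06 and 2.84 and an interaction of −0.22 ± 0.17 (adjusted p = 0.453). None of the 46 was called above and 3 were below, 6.52% against 2.5% among all genes. These were Lrdd, the PIDD adaptor of a death complex, at −1.303 ± 0.35 (adjusted p = 0.0431), lost without every library but DENWT_307 and DENWT_995 (adjusted p up to 0.159), Wrap53, a telomerase factor whose gene overlaps that of p53 head to head so that reads of the pair cannot be told apart without strand, at −0.93 ± 0.23 (adjusted p = 0.0339), lost without every library but DENWT_307, DENWT_995, PBSKO_544 and PBSWT_541 (adjusted p up to 0.154), and Zmat3 at −0.84 ± 0.23 (adjusted p = 0.0485), lost without every library but DENWT_995 and PBSKO_549 (adjusted p up to 0.184), with library totals alone, with limma-voom and with a non-robust spread. The number below was 0 without DENKO_141, DENKO_309, DENWT_996, PBSKO_154 or PBSWT_542 and 1 without PBSKO_544, PBSKO_549, PBSWT_541 or PBSWT_545, and 2 to 3 without any other library. The list's median interaction was −0.32.

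Of 37 genes of DNA repair and damage signalling 3 were called (8.11% against 6.58% among all genes), at a median of 0.012. The kinase Atm, which starts the response to double-strand breaks, had 1.11 ± 0.26 (adjusted p = 0.0306), lost without DENKO_141, DENWT_996, PBSWT_541, PBSWT_542 or PBSWT_545 (adjusted p up to 0.17), and the Ku subunit Xrcc6 had 0.80 ± 0.20 (adjusted p = 0.036), lost without every library but DENKO_309, DENWT_307 and DENWT_995 (adjusted p up to 0.217). The base excision endonuclease Apex1 was below. Immediate early genes and AP-1 subunits had a negative interaction in 28 of 29 members and a median of −0.95, from responses of 2.10 in wild type and 1.16 in knockout. The share called was 3.45%, against 6.58% among all genes. The test was passed by 1 member, the antiproliferative gene Btg1, at 106, 74.3 and 122 CPM in DENWT and 35.8 and 45.1 in DENKO, an interaction of −1.18 ± 0.28 (adjusted p = 0.0296), lost without DENKO_141, DENWT_996, PBSKO_154, PBSWT_541 or PBSWT_542 (adjusted p up to 0.176). The number below was 0 without DENKO_141, DENWT_996, PBSKO_154 or PBSWT_542, 2 without PBSKO_544 and 3 without DENKO_309 or PBSKO_549, and 1 without any other library. Myc had 0.93 ± 1.28 (adjusted p = 0.695), with PBSWT_541 at 56.2 CPM and the other PBS libraries at 4.46 to 8.68.

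Ribosome biogenesis genes, which build the ribosomal subunits in the nucleolus, formed the list with the most genes called below. Of 35 tested members 10 were below and none above, against 2.5% below among all genes, and 34 had a negative interaction. The median interaction was −0.78, from a median response of 0.90 in wild type and 0.17 in knockout. The number called was 0 without DENKO_141, 2 without PBSWT_542 or PBSWT_545, 3 without DENKO_309, DENWT_996, PBSKO_154, PBSKO_549 or PBSWT_541, 6 without DENWT_307 and 18 without DENWT_995, and 9 without any other library, and the median stayed between −0.88 and −0.66. Rrp12, an export factor for pre-ribosomes, stood at 9.80, 8.14 and 10.4 CPM in PBSWT, 12.5, 10.8 and 10.2 in PBSKO, 26.5, 23.3 and 37.0 in DENWT and 13.4 and 12.7 in DENKO. The DENWT libraries were the 3 highest of the 11 and DENKO lay close above the vehicle groups, at an interaction of −1.39 ± 0.27 (adjusted p = 0.0166), lost without DENKO_141 (adjusted p = 0.0989). Utp18, of the complex that processes the small subunit RNA, had −1.07 ± 0.21 (adjusted p = 0.0189), lost without DENKO_141 (adjusted p = 0.112). The other called members were Nop58, Dkc1, Pes1, Cirh1a, Nip7, Ddx21, Mybbp1a and Nob1.

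Among 39 genes of the integrated stress and unfolded protein responses 1 was above and 3 below (10.3% against 6.58% among all genes). Slc3a2, a heavy chain of amino acid exchangers, measured 48.7, 51.6 and 47.5 CPM in PBSWT, 59.4, 44.1 and 58.4 in PBSKO, 157, 191 and 209 in DENWT and 84.0 and 95.1 in DENKO. The DENKO libraries lay between the vehicle and DENWT libraries, and the interaction was −1.18 ± 0.22 (adjusted p = 0.0151), lost without DENKO_141 (adjusted p = 0.106). Ppp1r15a, the GADD34 subunit that reverses the block on translation, had −1.53 ± 0.32 (adjusted p = 0.022), lost without DENKO_141 or PBSWT_545 (adjusted p up to 0.149). The stress factor CHOP, encoded by Ddit3, had an interaction of −1.34 ± 0.30 (adjusted p = 0.0266), lost without DENKO_141, DENWT_996, PBSWT_541, PBSWT_542 or PBSWT_545 (adjusted p up to 0.159). The 3 below became 0 without DENKO_141 and 1 without PBSWT_545, and 2 to 4 without any other library.

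Genes of the cell cycle were called at about the share of all genes, 6.58%, or below it. Of 44 genes of G1 and S phase 2 were above and 1 below (6.82%), at a median of 0.24. Of 31 genes of G2 and mitosis 1 was above (3.23%), at a median of 0.81. Among these 31, 12 had an unadjusted p below 0.05, 9 of them with a positive interaction, against 3354 of 13255 among all genes. With a stricter filter, at least 5 CPM in 2 libraries, the median of the mitotic genes left was −0.80. Tk1, the S phase thymidine kinase, stood at 28.3, 40.2 and 38.6 CPM in PBSWT, 26.5, 38.9 and 18.04 in PBSKO, 4.38, 4.81 and 1.71 in DENWT and 21.5 and 14.8 in DENKO. Its interaction was 2.70 ± 0.55 (adjusted p = 0.0272), lost without DENKO_141, PBSKO_154, PBSWT_542 or PBSWT_545 (adjusted p up to 0.156). The called mitotic gene was the kinase Aurkb, at 2.90 ± 0.64 (adjusted p = 0.026), lost without DENKO_141, DENWT_996, PBSWT_541 or PBSWT_545 (adjusted p up to 0.156). It was not among the genes kept by the stricter filter, under which no mitotic gene was called.

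The proliferation marker Mki67 stood at 1.59, 2.51 and 3.38 CPM in PBSWT, 1.57, 2.24 and 3.19 in PBSKO, 0.574, 0.765 and 0.201 in DENWT and 2.99 and 1.603 in DENKO. The DENKO libraries lay within the range of the vehicle groups and above DENWT, and the interaction of 2.29 ± 0.65 (adjusted p = 0.0519) missed the threshold. It passed without DENKO_309, DENWT_995 or PBSKO_549 (lowest adjusted p = 0.0334), and with DESeq2, without the low-count filter or with scaling by library totals alone. Cyclin D1 (Ccnd1) measured 31.9, 24.02 and 18.3 CPM in PBSWT, 24.8, 25.4 and 13.3 in PBSKO, 7.09, 7.38 and 3.28 in DENWT and 35.6 and 13.3 in DENKO, at 2.29 ± 0.65 (adjusted p = 0.0684). It passed without DENKO_309 (adjusted p = 0.0304), with DESeq2 and with a non-robust spread. Pcna had responses of 0.67 and 0.42 and an interaction of −0.24 ± 0.21 (adjusted p = 0.489).

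Several of the largest negative interactions belonged to genes near 0 under PBS. Igdcc4, an immunoglobulin superfamily membrane protein, stood at 0.236, 0.205 and 0 CPM in PBSWT, 0.181, 0.149 and 0.160 in PBSKO, 6.64, 5.67 and 7.64 in DENWT and 0.0384 and 0.380 in DENKO. DENWT alone was high, and the interaction was −5.07 ± 1.09 (adjusted p = 0.0236), lost without DENKO_141 or PBSKO_154 (adjusted p up to 0.0917). Bmper, a secreted regulator of BMP signalling, stood at 7.42, 11.8 and 15.7 CPM in DENWT and 0.959 and 1.603 in DENKO, and no vehicle library exceeded 0.348. Its interaction was −4.59 ± 0.96 (adjusted p = 0.022), lost without DENKO_141, PBSKO_154, PBSKO_544 or PBSWT_542 (adjusted p up to 0.0989) and with limma-voom. Gzmm, a granzyme, had −3.22 ± 0.79 (adjusted p = 0.0339), lost without every library but DENKO_309, DENWT_307 and DENWT_995 (adjusted p up to 0.159) and with limma-voom. Dclk2, a microtubule-associated kinase, had −2.70 ± 0.62 (adjusted p = 0.0284), lost without every library but DENKO_309, DENWT_307, DENWT_995, PBSKO_544 and PBSKO_549 (adjusted p up to 0.154), and 1500015A07Rik had −2.76 ± 0.43 (adjusted p = 0.00799), lost without DENKO_141 (adjusted p = 0.0603).

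The negative interactions with the smallest p-values were of moderate size. Eaf1, a partner of the elongation factor ELL, measured 49.9, 51.6 and 55.3 CPM in PBSWT, 62.4, 59.1 and 61.5 in PBSKO, 155, 164 and 196 in DENWT and 81.2 and 91.9 in DENKO, with narrow spread in each group. The interaction was −1.21 ± 0.18 (adjusted p = 0.00682), lost without DENKO_141 (adjusted p = 0.0603). D10Wsu102e had −1.61 ± 0.25 (adjusted p = 0.00799), lost without DENKO_141 (adjusted p = 0.0603). The cullin adaptor Kctd10 had −1.10 ± 0.17 (adjusted p = 0.00834), lost without DENKO_141 (adjusted p = 0.0788).

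Genes with responses of opposite sign included Znrf1, a RING-type E3 ligase, at 65.4, 61.5 and 56.7 CPM in PBSWT, 48.1, 62.1 and 58.7 in PBSKO, 31.7, 33.2 and 26.3 in DENWT and 61.2 and 69.3 in DENKO. DENWT was the lowest group and DENKO lay within or just above the vehicle range, with an interaction of 1.22 ± 0.20 (adjusted p = 0.00834). The pseudogene Marcksl1-ps4, whose reads may come from its parent gene, had 3.40 ± 0.37 (adjusted p = 0.00181). Both calls held without each library in turn. 1110049F12Rik had responses of 0.80 and −0.39 and an interaction of −1.19 ± 0.19 (adjusted p = 0.00904), lost without DENKO_141 (adjusted p = 0.081).

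No member was called in 5 lists with all 11 libraries, in edgeR's quasi-likelihood test with the settings used throughout. For oxidative phosphorylation, 40 subunits of the respiratory chain and ATP synthase, the median interaction was 0.021 and 1 member had an unadjusted p below the threshold of 0.05. Without DENWT_995, 1 member was called above. Among 22 cytosolic heat shock genes 3 had an unadjusted p below 0.05, at a median of 0.041, and 1 was called above with DESeq2, with the stricter filter, and without DENKO_309 or PBSKO_544. Without PBSWT_545, 1 was called below. Among 20 circadian clock genes 5 had one, at a median of 0.33, and 1 was called above with DESeq2, with a non-robust spread, and without PBSKO_544 or PBSKO_549. Without DENWT_995, 1 was called below. In the 22 genes of sinusoidal endothelium 2 had one, at a median of −0.41, and in 13 bile duct genes 0 had one, at a median of −0.14. DESeq2 called none in the oxidative phosphorylation, endothelium and bile duct lists, and limma-voom none in any of the 5.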

How the data were processed

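Each library has 1 file of unnormalised read counts by gene symbol, as deposited by the authors. The submitters' processing notes name bcl2fastq, TopHat2, HTSeq and the build mm9. Software versions, annotation and strand setting were not given in the sources, so overlapping genes and near-identical family members are uncertain. Beside 22609 genes each file held 5 tallies of unassigned reads, 71.6% to 78.7% of the listed counts in PBS libraries and 61.4% to 64.9% in the 5 DEN libraries used, which were left out.

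Counts of 11 libraries in 4 groups were fitted together in R 4.3.3 with edgeR 4.0.16 (TMM scaling, filterByExpr by group, robust quasi-likelihood test), and the interaction was tested with Benjamini-Hochberg adjustment over 13255 genes at 0.05. Fitted responses of each genotype are given as values without a test. CPM uses TMM-scaled library sizes, and the TMM factors were 0.858 to 0.901 in PBS and 1.13 to 1.29 in DEN libraries. The standard error is the absolute log2 value divided by the root of F. The fit was tested on simulated counts with known interactions, 50 genes at each size. It recovered 1 at 1.5-fold, 14 at 2-fold, 42 at 4-fold and 47 at 8-fold, and called 5 unchanged genes. Most simulated interactions of 2-fold or less were thus missed. The simulation changed far fewer genes than the 872 called here, and its libraries were drawn from a fitted model without a divergent DENKO library. Its rates may therefore not carry over to the reported fit, in which interactions below 2-fold were also called.

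Named genes were Trim21 and, among called genes that averaged 1 CPM or more and had over 3 counts in every group, the 8 largest interactions and 5 smallest p-values in each direction, the 5 smallest p-values among responses of opposite sign, and up to 2 members of each of 39 gene lists. A set of NRF2, cell cycle and liver genes was named whether called or not. The members, lists and rule were chosen with earlier results of these data known. Of 1307 list entries 1295 matched a symbol in the files, 14 of them by an older symbol. Some genes belong to several lists. A few genes that meet the rule are not reported here. Promoters came from RefSeq on GRCm38.p6, matched by symbol. Alternatives were other scalings, other filters, DESeq2 1.42.0, limma 3.58.1 voom, a non-robust spread and leaving out each library.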

Additional observations from a re-analysis of the deposited data

Results flagged for a closer look

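The DEN response of 872 genes differed between wild type and knockout in the interaction test itself, and the naming rule took 78 of them, most of which are given here. Groups of 2 or 3 libraries are too small for a test of single libraries that stand apart, so none was made.

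The largest log2 interactions with a knockout response above that of wild type were Cyp1a2 5.78, Hsd3b5 5.13, Slco1a1 4.91, Fam55b 4.65, Cyp2c55 4.64, Serpina6 4.33, Slc22a28 4.18, Syt1 3.96, Rgn 3.92, Akr1c6 3.84, Hamp2 3.49, Marcksl1-ps4 3.40, 2810007J24Rik 3.36, Itgax 3.07, Tk1 2.70, Otc 2.69 and Ugt2b1 2.69. Next in size came log2 interactions of Gulo 2.54, C9 2.32, Cyp27a1 2.27, Ces2a 2.22, Cyp4f14 2.17, Gbp7 2.13, Lgals3 1.99, Acss2 1.93, Mlxipl 1.93, Gsta3 1.90, Trim14 1.86, Tm7sf2 1.70, Alas2 1.68, C6 1.40, Pfkfb1 1.39 and Psmb8 1.26. The smaller positive log2 interactions were Col14a1 1.26, Znrf1 1.22, Aox1 1.21, Cxcl12 1.21, Col3a1 1.19, F7 1.17, Atm 1.11, Thrb 1.10, Reln 0.99, Gclm 0.92, Trim24 0.84, Pfkl 0.83, Nfe2l2 0.82, Xrcc6 0.80 and Nr1h4 0.80.

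Log2 interactions with the knockout response below that of wild type were largest in size for Igdcc4 −5.07, Orm3 −4.67, Bmper −4.59, Gzmm −3.22, Lcn2 −3.16, 1500015A07Rik −2.76, Dclk2 −2.70, Cidec −2.60, Cd14 −2.17, Fabp4 −1.97, Plin2 −1.91, Gpc1 −1.90, Tnfrsf12a −1.79 and D10Wsu102e −1.61. The others of this direction had log2 interactions of Ppp1r15a −1.53, Hsd17b13 −1.47, Rrp12 −1.39, Lrdd −1.30, Eaf1 −1.21, 1110049F12Rik −1.19, Tfrc −1.18, Btg1 −1.18, Slc3a2 −1.18, Kctd10 −1.10, Utp18 −1.07, Ehhadh −1.03, Sdsl −0.98 and Wrap53 −0.93.

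Of these 78 calls, 62 were lost without DENKO_141 and 16 held without each library in turn.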

How the results depend on the processing

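Left out in turn, single libraries gave 26 to 1161 called genes, 24 to 622 with the knockout response above that of wild type and 2 to 539 with it below. Without DENKO_141 the group DENKO is 1 library that is assumed to vary like the others, and the same holds without DENKO_309. DESeq2 called 1465 genes, 861 above and 604 below, and its calls included 861 of the 872. It called 23 interferon-stimulated genes above against 15, 17 ribosome biogenesis genes below against 10, which limma-voom made 5, 11 glucuronosyl- and sulfotransferases against 5, and 8 bile acid genes against 4. Of the urea cycle and amino acid genes, 5 were called above against 8 with limma-voom, library totals alone, upper-quartile factors or no low-count filter. Acute phase genes called below were 7 with DESeq2, 6 with a non-robust spread, 5 with the stricter filter and 1 without the low-count filter, against 3. The other settings called 806 to 894 genes, and the share above was 61.9% in the reported fit and 54.4% when scaled by library totals alone, which moved the median of all genes to −0.091. Of the 78 named calls 65 held in all 8 settings that kept every library. Among those lost were, without the low-count filter, Orm3, Lcn2, Cidec, Lgals3 and Hamp2, with limma-voom Bmper, Gzmm, Col3a1, Hamp2 and Lrdd, with library totals alone Col3a1, Xrcc6, Trim24 and Nfe2l2, and with a non-robust spread Nfe2l2. None of the 872 genes reversed its sign in any fit that tested it, which was unlikely from the start because these fits share their libraries with the reported one. The cause of these differences was not tested. No paired analysis was possible because no replicate number occurs in more than 1 group. With 2 DENKO libraries and this depth, a gene that was not called may still differ between the genotypes.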

Other observations

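DENHET_136, the library labelled heterozygote, entered no comparison, and its values are those of 1 library. In 837 of the 872 called genes (96.0%) it lay nearer to the DENWT mean than to the DENKO mean on the log2 scale, although its 7 Trim21 counts were at the level of the knockouts. It lay inside the DENWT range in 227 of them and inside the DENKO range in 9. On a scale with 0 at the DENWT mean and 1 at the DENKO mean, its median position over the called genes was −0.409, beyond the DENWT mean.

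Among genes named above, Cyp1a2 stood at 26.4 CPM in DENHET_136, Rgn at 66.4, Akr1c6 at 57.8 and Gbp7 at 3.96, all near the DENWT values. Lcn2 at 2632 CPM, Cd14 at 111, Bmper at 40.6 and Tnfrsf12a at 319.9 were above every one of the 11 other libraries. Glul stood at 121 CPM, above both DEN groups and below the vehicle groups.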
